A study of Mus musculus with 26 samples.

Results

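Macrophages sorted from the pancreatic islets of female NOD/ShiLtJ (NOD) mice at 8 weeks of age were compared with those at 4 weeks, across all genes, in 8 of the 26 libraries of the series (n = 4 at each age, taken by the strain and age in the sample labels). NOD mice develop autoimmune diabetes without treatment, and the interval between these ages is when leukocytes are known to gather in and around their islets. Both groups carried the same unmodified strain background and received no treatment named in the labels. Islets were dispersed without enzyme, and viable cells were sorted that carried CD45, F4/80 and CD11c but neither B220 nor CD90, with the islet cells of 6 to 14 mice pooled per sample. RNA was amplified into cDNA before sequencing. The other libraries were NOD at 2 weeks (n = 4) and 12 weeks (n = 3) and C57BL/6J (B6) at 2 weeks (n = 3), 4 weeks (n = 4) and 12 weeks (n = 4). B6 had no group at 8 weeks, so change with age and strain could not be set against each other at this step.

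Resident islet macrophages lie beside beta cells and capillaries, take up beta cell products and present peptides from them on MHC class II. Interferon-gamma, made mainly by T and natural killer cells, binds the receptor Ifngr1 and Ifngr2, whose kinases Jak1 and Jak2 pass the signal on to the nucleus. The response acts through gamma-activated sites (GAS), induces Irf1 and raises chemokines, guanylate-binding proteins, immunity-related GTPases and both classes of MHC genes. Type I interferons act instead through a complex with Irf9 at interferon-stimulated response elements (ISRE), and inflammatory receptors act through NF-kB.

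Total counts ran from 11364167 to 12725828 at 4 weeks and from 10631675 to 12884619 at 8 weeks, with 18974 to 22079 and 21059 to 23310 genes holding a count. Spearman correlations across genes were 0.936 to 0.967 between libraries of one age and 0.924 to 0.950 between ages, where genes are not independent replicates. The first principal component of log2 CPM (28.6% of the variance) separated the ages, while libraries 3 and 4 of 4 weeks lay apart from the other libraries, on opposite sides of the second (18.4%). Levels are CPM (counts divided by the TMM-scaled library size), given as mean ± SD over libraries. Log2 fold changes are 8 over 4 weeks ± SE, with p from the edgeR quasi-likelihood test on the 15 NOD libraries, adjusted over all 16468 genes tested and called under 0.05. The labels do not state that samples of one age came from separate cohorts, so p-values measure the spread between these pools, which may be technical. In whole sorted populations, a change in the share of a cell type and a change of RNA per cell cannot be told apart.

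Of 16468 genes tested, 928 were called (5.64%), 657 higher at 8 weeks (3.99%) and 271 lower (1.65%). The median log2 fold change of all genes was -0.03. The libraries of the 2 ages did not overlap for 1321 genes higher at 8 weeks (8.02%) and 829 lower (5.03%). Rises were also larger, with 78 called genes up at least 8-fold and 4 down by as much. A fit on all 26 libraries, which also changes the filter and the scaling, called 169 genes, 168 of them among the 928, and no called gene had the other direction there. Over the 9354 genes with a mean of at least 5 CPM, the median SD of log2(CPM + 1) was 1.02 among the B6 libraries of 4 weeks, against 0.276 and 0.205 in the NOD libraries of 4 and 8 weeks, and the NOD fit was chosen with this known. In the paragraphs below, genes whose call was lost in the 26-library fit are listed at the end of their group.

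**Figure D1:**
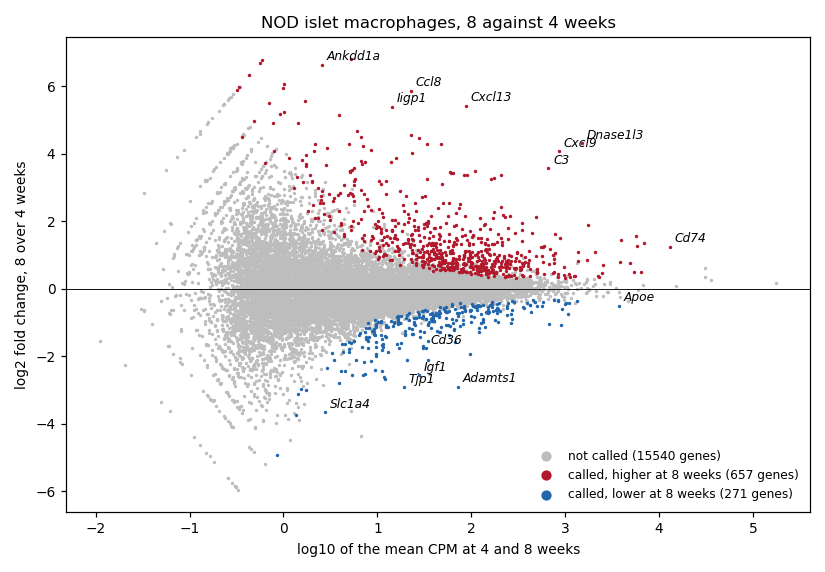
Log2 fold change of each gene tested, 8 over 4 weeks, against the log10 of its mean CPM in the 8 libraries (genes without a count in these libraries are not drawn). Red points are the 657 genes called higher, blue points the 271 called lower and grey points the genes not called, and the points reach further above 0 than below it.

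Of the macrophage gene lists, the interferon-gamma response had the highest median. Of its 35 members tested, 22 were called higher and 0 lower, with a median log2 fold change of 1.501. Irf1, an early transcription factor of the response (chromosome 11, 53770014 to 53778374, GRCm38), stood at 58.5, 42.9, 40.3 and 37.5 CPM in the 4 libraries of 4 weeks and at 158, 157, 160.2 and 117 CPM in those of 8 weeks (log2 fold change 1.73 ± 0.16, adjusted p = 1.34e-07). All 8 week libraries lay above all of 4 weeks. Gbp2, a guanylate-binding protein that acts against intracellular pathogens (chromosome 3, 142620602 to 142638008), went from 18.3, 25.5, 29.5 and 20.3 CPM to 119.9, 133, 118 and 126 CPM (log2 fold change 2.41 ± 0.15, adjusted p = 1.99e-09). The spread within each age was small beside the step. Iigp1, an immunity-related GTPase (chromosome 18, 60376027 to 60392634), was near the floor at 4 weeks with 0.535, 0.816, 0.940 and 0.324 CPM and reached 18.7, 28.8, 30.0 and 35.2 CPM at 8 weeks (log2 fold change 5.40 ± 0.55, adjusted p = 1.31e-06).

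Cxcl9, the chemokine that draws T cells bearing Cxcr3 (chromosome 5, 92321347 to 92328079), had 57.9, 175, 125 and 21.5 CPM at 4 weeks and 1279, 1768, 1641 and 1746 CPM at 8 weeks (log2 fold change 4.08 ± 0.61, adjusted p = 0.00158). The 4 week libraries differed widely among themselves, yet the highest of them lay far below the lowest at 8 weeks. Cxcl10, a second ligand of the same receptor, had 53.5 ± 33.8 and 158 ± 18.5 CPM and did not pass (log2 fold change 1.56 ± 0.43, adjusted p = 0.0551). The receptor chains did not pass, with Ifngr1 at 345 ± 78.9 and 338 ± 40.3 CPM (adjusted p = 0.960) and Ifngr2 at 157 ± 13.7 and 145 ± 16.5 CPM (adjusted p = 0.809). Among the kinases, Jak2 rose (log2 fold change 0.93 ± 0.22, adjusted p = 0.0112) and Jak1 did not pass (0.25 ± 0.13, adjusted p = 0.385). Socs1, the feedback inhibitor of the kinases, was at 1.55 ± 1.40 and 1.56 ± 0.831 CPM. Among the other members that rose were Gbp4, Serpina3g, Batf2, Gbp7, Icam1, Ifi47, Cd274, Gbp3, Nlrc5, Tgtp2, Gbp8, Ciita, Irgm1, Fcgr4, Igtp and Il12rb1, named after their values were seen. Reads of Gbp4, Gbp8, Serpina3g and Tgtp2 may be split with near-identical copies, so their values are uncertain. With all 26 libraries in the fit, Gbp2, Gbp4, Gbp7, Irf1, Iigp1, Serpina3g, Cd274 and Cxcl9 kept the call, the other 14 called members lost it, and Cxcl10 passed. Jak2 also lost it without library 1 of 8 weeks (adjusted p = 0.0536), and Fcgr4, Igtp and Il12rb1 in 5, 7 and 7 of 8 omissions of 1 library. Markers of natural killer and T cells, which make interferon-gamma, are given with the other cell types below. The summed natural killer markers were higher with this list, at 4.13 to 7.40 CPM at 4 weeks and 13.3 to 21.7 CPM at 8 weeks, and their part in the result was not tested. Only 1 of these markers reached 5 CPM in at least 4 NOD libraries (log2 fold change 2.79). Cxcl9 lost the call with the replicate number as a block in the 8 libraries alone (adjusted p = 0.0599).

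The promoters of 4 of these genes are shown because members of the list moved together and the elements named above can be looked for in them. The sequences are from RefSeq (GRCm38.p6), 250 bases before to 50 after an annotated start, 5′ to 3′ on the strand of the gene, and capitals mark every match on either strand to a GAS (TTC, any 3 bases, GAA), an ISRE core (GAAA, any 2 bases, GAAA) or an NF-kB site (GGGA, any 4 bases, CC). The 4 genes were chosen for display after their values were seen.
Irf1 (chr11:53769764-53770063, plus strand): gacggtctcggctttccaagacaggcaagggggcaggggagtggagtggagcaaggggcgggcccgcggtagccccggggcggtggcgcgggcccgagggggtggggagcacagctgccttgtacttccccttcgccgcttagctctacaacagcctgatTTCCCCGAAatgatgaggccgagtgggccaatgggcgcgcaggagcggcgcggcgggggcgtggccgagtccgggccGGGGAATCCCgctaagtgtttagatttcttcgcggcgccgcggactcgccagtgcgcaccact
Gbp7 (chr3:142530086-142530385, plus strand): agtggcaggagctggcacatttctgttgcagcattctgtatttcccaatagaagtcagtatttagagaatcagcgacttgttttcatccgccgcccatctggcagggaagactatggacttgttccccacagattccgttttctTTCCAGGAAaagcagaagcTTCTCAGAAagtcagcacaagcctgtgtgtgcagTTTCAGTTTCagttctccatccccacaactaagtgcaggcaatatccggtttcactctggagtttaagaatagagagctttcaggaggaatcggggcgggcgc
Gbp2 (chr3:142620413-142620712, plus strand): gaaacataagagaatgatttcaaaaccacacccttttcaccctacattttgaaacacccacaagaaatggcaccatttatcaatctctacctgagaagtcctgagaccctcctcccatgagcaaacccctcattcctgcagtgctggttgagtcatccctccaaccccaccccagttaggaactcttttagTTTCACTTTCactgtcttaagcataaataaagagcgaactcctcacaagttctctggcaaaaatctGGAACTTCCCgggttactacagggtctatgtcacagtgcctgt
Cxcl9 (chr5:92328030-92328329, minus strand): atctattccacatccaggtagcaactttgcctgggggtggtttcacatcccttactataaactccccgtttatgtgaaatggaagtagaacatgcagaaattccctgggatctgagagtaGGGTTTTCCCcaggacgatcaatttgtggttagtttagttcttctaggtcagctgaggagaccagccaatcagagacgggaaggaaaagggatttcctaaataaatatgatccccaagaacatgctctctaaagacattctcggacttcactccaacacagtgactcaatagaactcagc
In Irf1 the capitals are a GAS match that begins 90 bases before the start and an NF-kB match 13 bases before it. Gbp7, which rose from 55.5 ± 5.69 to 136 ± 33.6 CPM (log2 fold change 1.29 ± 0.16, adjusted p = 8.97e-06), has GAS matches 106 and 87 bases before its start and an ISRE core match 53 before it. Gbp2 has an ISRE core match 59 bases before the start and an NF-kB match that begins 7 bases after it, and Cxcl9 has an NF-kB match 130 bases before the start. Of all 32851 promoters in the table, 8.30% hold a GAS match, 3.44% an ISRE core match and 20.7% an NF-kB match.

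Of the 22 members that rose, 14 had a promoter in the table. In 10 of them a GAS or ISRE core match was found, in 4 an NF-kB match and in 3 (Cd274, Ifi47 and Jak2) none of the letters searched. The matches of Tgtp2 and Igtp pair a GAS match with an ISRE core match a few bases downstream. A match is a description of letters in these windows and not a bound site. The 14 members were taken because they rose, and a gene counts if any of its starts holds a match. The shares of all promoters are per promoter and per motif, so the counts of members are not set against them. No share over a gene set is given for such a comparison. Fewer than 80% of the genes called higher had a promoter in the table (498 of 657), which makes that check void.

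**Figure D2:**
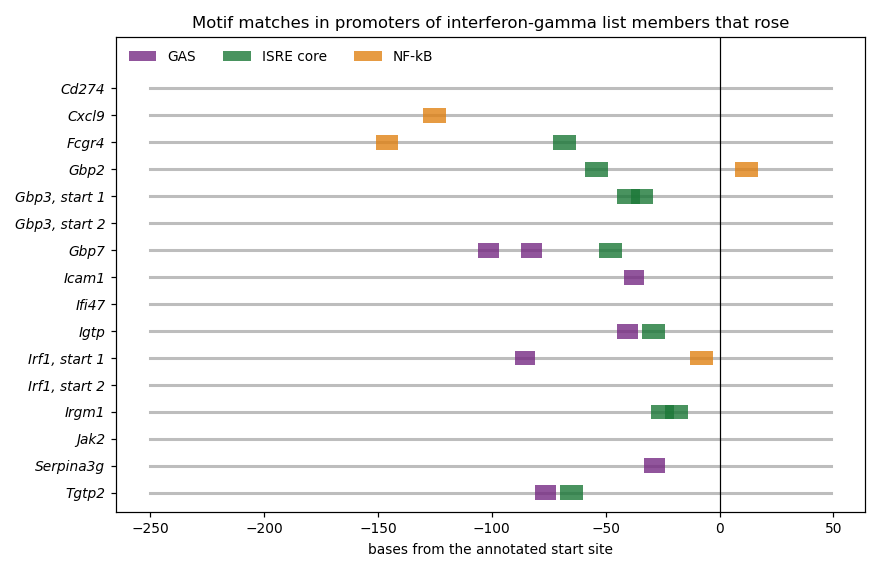
Positions of motif matches (coloured boxes) in the promoters of the 14 interferon-gamma list members called higher that have one in the table, in bases from the annotated start site (vertical line), with grey lines for the 300 bases searched. Gbp3 and Irf1 have 2 annotated starts, and every GAS and ISRE core match begins within 106 bases before the start.

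Most type I interferon-stimulated genes were not called, 25 of 29 tested. The other members were 1 called higher (3.45%, against 3.99% of all genes tested) and 3 lower (10.3%, against 1.65%). The median was -0.05, against -0.03 for all genes. The libraries of the ages did not overlap for 3 members higher at 8 weeks and 3 lower, so the list had no common direction. Oas2, a sensor of double-stranded RNA, had 70.3, 63.4, 64.0 and 69.2 CPM at 4 weeks and 29.2, 16.9, 39.5 and 24.1 CPM at 8 weeks (log2 fold change -1.28 ± 0.24, adjusted p = 0.000955). All 4 libraries of 8 weeks lay below all 4 of 4 weeks. Siglec1, the sialic acid receptor CD169, fell from 91.1 ± 9.27 to 39.6 ± 14.3 CPM (log2 fold change -1.20 ± 0.21, adjusted p = 0.000445). Rtp4 was called lower (log2 fold change -1.26 ± 0.32, adjusted p = 0.0166), but its groups overlapped, and the call was lost without library 1 or 2 of either age (adjusted p = 0.0639 to 0.0966). Zbp1, a sensor of Z-form nucleic acid, was the member called higher, from 23.3 ± 2.82 to 51.0 ± 7.46 CPM (log2 fold change 1.13 ± 0.23, adjusted p = 0.00283). Ifi44 had 1.64 ± 1.50 and 5.59 ± 2.65 CPM and did not pass (adjusted p = 0.114). Siglec1, Rtp4 and Zbp1 lost the call in the 26-library fit.

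Antigen presentation genes rose in both classes. Of 12 class II genes tested, 9 were called higher and 0 lower (median log2 fold change 0.81). The invariant chain Cd74 (chromosome 18, 60803848 to 60812652), which guards the peptide groove of class II molecules, had 7561, 7533, 7864 and 7973 CPM at 4 weeks and 15971, 18232, 19335 and 19874 CPM at 8 weeks (log2 fold change 1.25 ± 0.11, adjusted p = 4.62e-08). H2-Ab1, the beta chain of the I-A molecule (chromosome 17, 34257689 to 34269419), had 3306, 3944, 3596 and 2945 CPM and then 7579, 8438, 8554 and 8416 CPM (log2 fold change 1.26 ± 0.11, adjusted p = 4.87e-08). Neither gene had overlapping libraries. H2-Aa and H2-Eb1, the other class II chains, rose by 1.35 ± 0.13 and 1.58 ± 0.13 on the log2 scale, and the lysosomal thiol reductase Ifi30 by 1.25 ± 0.11. Ciita, the coactivator that switches class II genes on, rose (log2 fold change 0.74 ± 0.16, adjusted p = 0.00549), a call lost in the 26-library fit. With all 26 libraries, 6 of the list kept the call.

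Of 15 class I genes tested, 8 were called higher and 0 lower (median 0.71). H2-K1, a classical class I heavy chain, had 424 ± 53.5 and 969.8 ± 116 CPM (log2 fold change 1.19 ± 0.11, adjusted p = 2.64e-07), and H2-D1 rose by 0.77 ± 0.10 on the log2 scale. These heavy chains are near-identical to other class I genes, so the split of reads between them is uncertain. B2m, their shared light chain, rose from 3585 ± 663 to 6126 ± 714 CPM (log2 fold change 0.77 ± 0.14, adjusted p = 0.00103). Tap1, a subunit of the peptide transporter, went from 32.7, 39.3, 41.9 and 37.8 CPM to 93.2, 66.2, 82.4 and 76.9 CPM (log2 fold change 1.07 ± 0.17, adjusted p = 0.000154), with exons that overlap Psmb9 on the opposite strand and a call lost in the 26-library fit. Tapbp, which bridges transporter and class I molecule, rose by 0.68 ± 0.12.

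Among co-stimulation and checkpoint genes, 6 of 18 tested were called higher and 0 lower (median 0.71). Cd274, the checkpoint ligand PD-L1 (chromosome 19, 29367455 to 29388095), had 24.6, 47.2, 33.1 and 26.1 CPM at 4 weeks and 263, 331, 384 and 292 CPM at 8 weeks (log2 fold change 3.28 ± 0.43, adjusted p = 0.000349). Cd40, the receptor through which helper T cells license antigen-presenting cells, had 7.49, 14.2, 7.21 and 2.51 CPM and then 40.3, 54.6, 60.3 and 54.0 CPM (log2 fold change 2.73 ± 0.39, adjusted p = 0.000139). The groups of both genes lay wide apart. Cd86, a ligand of CD28 on T cells, rose from 173 ± 24.1 to 300.4 ± 29.3 CPM (log2 fold change 0.79 ± 0.11, adjusted p = 6.11e-05), and its partner Cd80 from 5.15 ± 1.13 to 16.6 ± 3.26 CPM, with a call that was lost in the 26-library fit. Slamf7 and Slamf8, receptors of the SLAM family, rose by 3.25 ± 0.32 and 1.38 ± 0.16.

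**Figure D3:**
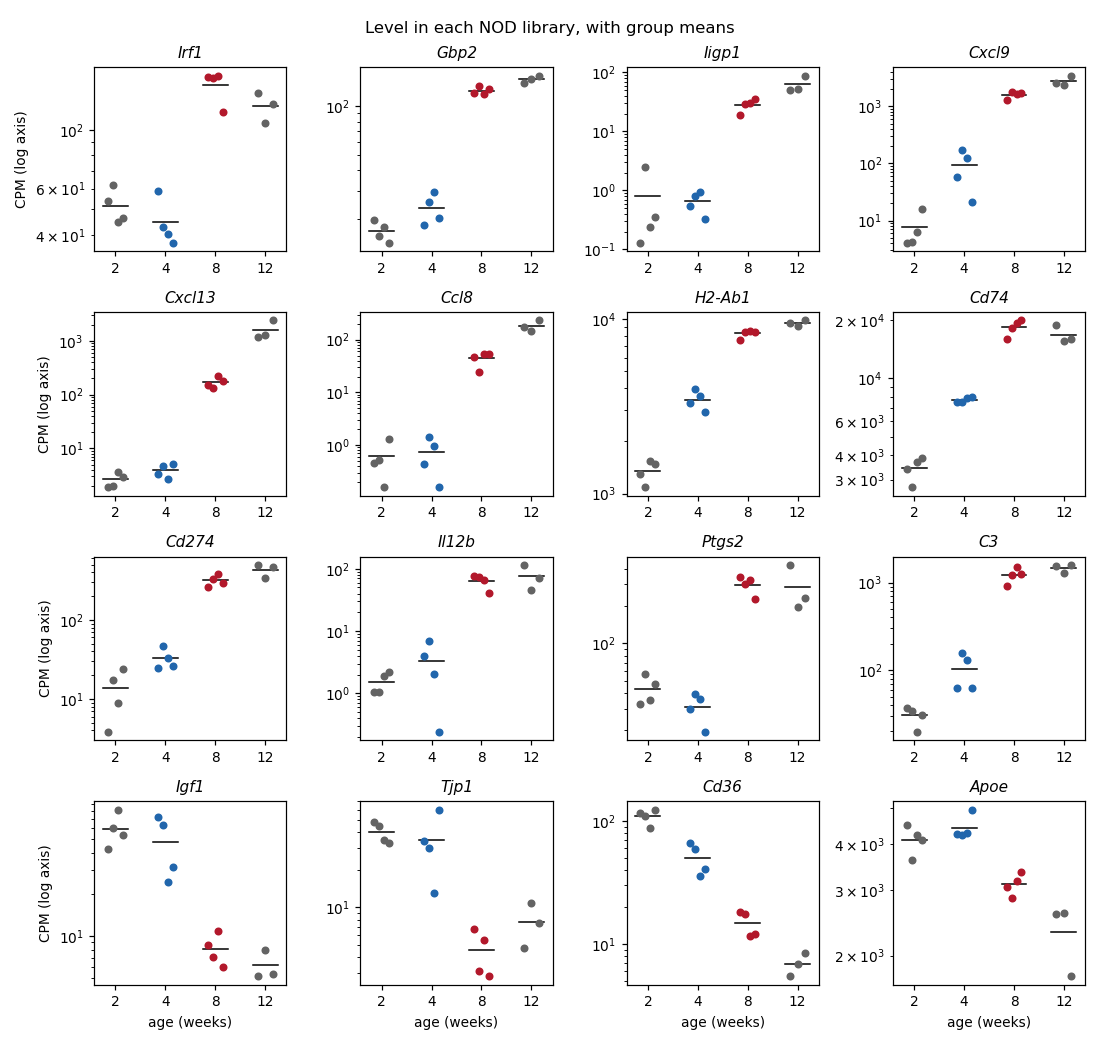
CPM in each NOD library (points, log axis) by age in weeks for 16 genes, with the mean of each age as a line, 4 weeks in blue and 8 weeks in red. The 8 week libraries lie above all 4 week libraries for the first 12 genes and below them for Igf1, Tjp1, Cd36 and Apoe.

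Chemokine genes split by member. Of 21 tested, 6 were called higher and 1 lower (median 0.67). Ccl8, a ligand of CC chemokine receptors on monocytes and T cells (chromosome 11, 82115185 to 82116799), had 0.446, 1.41, 0.940 and 0.162 CPM at 4 weeks and 47.1, 24.3, 53.6 and 53.3 CPM at 8 weeks (log2 fold change 5.86 ± 0.41, adjusted p = 8.75e-09). Cxcl13, the chemokine that draws B cells through Cxcr5 (chromosome 5, 95956951 to 95961068), had 3.30, 4.67, 2.74 and 5.18 CPM and then 148, 131, 227 and 176 CPM (log2 fold change 5.42 ± 0.29, adjusted p = 1.99e-09). Both were low in every library of 4 weeks and high in every library of 8 weeks. Ccl5, a chemokine that draws T cells and monocytes, rose from 15.0 ± 7.15 to 154 ± 29.2 CPM (log2 fold change 3.36 ± 0.43, adjusted p = 0.000236), and Ccl2, the ligand of Ccr2, from 6.68 ± 3.43 to 24.0 ± 8.68 CPM. The member that fell was Cxcl14, from 366, 399.8, 303 and 359 CPM to 232, 187, 164 and 119 CPM (log2 fold change -1.03 ± 0.15, adjusted p = 6.26e-05). The calls of Ccl5, Ccl2 and Cxcl14 were lost in the 26-library fit (adjusted p = 0.0779 for Ccl5).

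Of 21 cytokine and antagonist genes tested, 7 were called higher and 0 lower (median 0.70). Il12b, the subunit shared by IL-12 and IL-23 (chromosome 11, 44400063 to 44414033), had 4.01, 6.82, 2.04 and 0.243 CPM at 4 weeks and 76.5, 73.6, 66.6 and 40.8 CPM at 8 weeks (log2 fold change 4.28 ± 0.56, adjusted p = 0.000153). Il10, a cytokine that restrains macrophages, had 2.14, 0.519, 0.470 and 0.647 CPM and then 22.6, 21.9, 13.1 and 7.48 CPM (log2 fold change 4.11 ± 0.67, adjusted p = 0.000269). In both genes library 4 of 8 weeks was the lowest of its age but still above every 4 week library. Il1b went from 503 ± 157 to 1053 ± 188 CPM (log2 fold change 1.07 ± 0.17, adjusted p = 0.000241), and the IL-1 receptor antagonist Il1rn from 72.7 ± 10.7 to 247 ± 31.1 CPM (log2 fold change 1.77 ± 0.19, adjusted p = 1.40e-06). Il18bp, the decoy that binds IL-18, rose by 3.42 ± 0.37 on the log2 scale, with exons that overlap Numa1 on the opposite strand. Tnf had 314, 364, 152 and 153 CPM and 519.9, 551, 489 and 306 CPM, with overlapping groups, and did not pass (adjusted p = 0.227). Il10 and Il1rn lost the call in the 26-library fit (adjusted p = 0.0938 each).

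Chemokine receptors gave 5 higher and 2 lower of 16 tested (median 0.46). Ccrl2, a non-signalling receptor that holds chemerin, rose from 214 ± 47.6 to 674 ± 105 CPM (log2 fold change 1.65 ± 0.20, adjusted p = 1.27e-05), and Cxcr4, the receptor for Cxcl12, from 159 ± 39.7 to 528 ± 71.6 CPM (log2 fold change 1.73 ± 0.27, adjusted p = 0.000712). Ccr7, which leads dendritic cells to lymph nodes, had 1.16, 0, 0.940 and 1.38 CPM and then 16.3, 8.97, 13.8 and 2.24 CPM (log2 fold change 3.57 ± 0.88, adjusted p = 0.0159). It also lost the call in limma-voom (adjusted p = 0.0862). The formyl peptide receptor Fpr2 had 0.696 ± 0.735 and 4.35 ± 1.68 CPM (log2 fold change 2.64 ± 0.71, adjusted p = 0.0262), shares sequence with Fpr3, and lost the call without library 3 of 4 weeks or library 2 or 3 of 8 weeks. Cx3cr1, the fractalkine receptor of resident macrophages, was lower (log2 fold change -0.43 ± 0.10). Ccr7, Fpr2 and Cx3cr1 lost the call in the 26-library fit.

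Of 10 Fc receptor genes, 3 were called higher and 1 lower. Fcrls, an Fc receptor-like gene of resident macrophages and microglia, had 9.36, 9.72, 9.48 and 18.6 CPM at 4 weeks and 2.61, 2.31, 1.65 and 3.91 CPM at 8 weeks (log2 fold change -2.16 ± 0.35, adjusted p = 0.000219). The inhibitory receptor Fcgr2b and the signalling chain Fcer1g rose by 0.68 ± 0.16 and 0.42 ± 0.10, calls that were lost in the 26-library fit. Among 25 pattern recognition and inflammasome genes, 10 were called higher and 1 lower (median 0.38). Nlrp3, the inflammasome sensor, had 147, 176, 109.6 and 136 CPM and then 505, 478, 517 and 289 CPM (log2 fold change 1.65 ± 0.26, adjusted p = 0.000427). Library 4 of 8 weeks was the lowest of that age and still above all 4 week libraries. Tlr2 rose by 0.97 ± 0.17, and of the C-type lectins Clec7a rose by 1.04 ± 0.19 and Clec4e by 2.81 ± 0.55. Casp4, the caspase that senses cytosolic endotoxin, rose by 1.59 ± 0.33. Clec4e and Casp4 lost the call in the 26-library fit.

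NF-kB feedback and prostaglandin genes rose, with 15 of 20 called higher and 0 lower (median 1.12). Ptgs2, the inducible cyclooxygenase (chromosome 1, 150100031 to 150108227), had 29.9, 39.3, 35.8 and 19.5 CPM at 4 weeks and 342, 299.6, 322 and 227 CPM at 8 weeks (log2 fold change 3.26 ± 0.26, adjusted p = 7.09e-08). Acod1, which makes itaconate (chromosome 14, 103046977 to 103056573), had 2.76, 4.75, 1.88 and 0.162 CPM and then 73.8, 58.3, 52.7 and 30.4 CPM (log2 fold change 4.48 ± 0.53, adjusted p = 3.10e-05). No library of one age reached the other in either gene. Nfkb2, Sod2 and Hif1a, a transcription factor subunit of the pathway, a mitochondrial superoxide dismutase and the hypoxia factor, rose by 1.05 ± 0.16, 1.05 ± 0.16 and 1.19 ± 0.15 on the log2 scale. With all 26 libraries 7 members kept the call, and Sod2 did not (adjusted p = 0.119).

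Immediate early and dissociation genes, which handling and dispersal of tissue also raise, moved with these groups, with 13 of 25 called higher and 0 lower (median 0.75). Fos, a subunit of AP-1, had 963, 992, 743 and 758 CPM at 4 weeks and 1519, 2096, 1998 and 1801 CPM at 8 weeks (log2 fold change 1.10 ± 0.18, adjusted p = 0.000311). Egr1 had 2107 ± 431 and 5777 ± 983 CPM (log2 fold change 1.45 ± 0.27, adjusted p = 0.00366), Egr3 11.7 ± 3.93 and 39.0 ± 3.42 CPM (log2 fold change 1.73 ± 0.34, adjusted p = 0.00219) and Ier3 26.2 ± 8.85 and 66.3 ± 6.07 CPM (log2 fold change 1.34 ± 0.19, adjusted p = 7.06e-05). The zinc finger factor Klf4 and the heat shock cochaperone Dnajb1 rose by 1.60 ± 0.27 and 0.98 ± 0.16. The part of this movement in the cytokine and NF-kB results was not tested. With all 26 libraries in the fit, 2 members kept the call, and Fos, Egr1, Egr3 and Ier3 lost it.

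Complement genes gave 6 higher and 2 lower of 17 tested (median 0.35). C3, the central component of the cascade (chromosome 17, 57203970 to 57228136), had 62.5, 156, 130.3 and 63.5 CPM at 4 weeks and 924, 1226, 1514 and 1245 CPM at 8 weeks (log2 fold change 3.57 ± 0.31, adjusted p = 3.43e-06). The highest 4 week library was far under the lowest at 8 weeks. C1ra, a protease that starts the classical pathway, and C4b, the next component, went from 0.988 ± 0.517 to 12.8 ± 3.46 and from 2.43 ± 1.66 to 11.9 ± 5.58 CPM. Cfp, which stabilises the C3 convertase, rose by 0.93 ± 0.16. C1qb, a chain of the C1q recognition unit, rose by 0.47 ± 0.10. C1ra, C4b, Cfp and C1qb lost the call in the 26-library fit.

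Most core macrophage genes were not called, 17 of 22 tested. Those called were 2 higher (9.09%, against 3.99% of all genes tested) and 3 lower (13.6%, against 1.65%). The list median was -0.05, near that of all genes (-0.03). Ptprc (CD45) had 1077 ± 127 and 1070.3 ± 103 CPM and Adgre1 (F4/80) 349 ± 46.6 and 344 ± 14.4 CPM, and neither passed (adjusted p = 0.983 and 0.964). Both are part of the gate, as is Itgax (CD11c), which was called higher, from 637 ± 28.3 to 897 ± 37.3 CPM (log2 fold change 0.49 ± 0.10, adjusted p = 0.00384). Csf1r, the receptor for the macrophage growth factor, had 2293 ± 291 and 1959 ± 44.6 CPM and the lysosomal marker Cd68 1047 ± 151 and 879.7 ± 119.9 CPM, and neither passed. Lyz2, lysozyme, rose by 0.85 ± 0.14. The purine receptor P2ry12, a gene high in microglia, was lower (log2 fold change -0.77 ± 0.16), with exons that overlap Med12l on the opposite strand. In the 26-library fit 0 of the list were called higher or lower, and Itgax, Lyz2 and P2ry12 lost the call.

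Several lipid-handling genes fell. Of 26 lipid-associated and phagocytic genes, 6 were called lower and 1 higher, although the median of the list (-0.08) lay near that of all genes. Cd36, the scavenger receptor for oxidised lipoprotein (chromosome 5, 17781690 to 17888801), had 65.7, 59.5, 36.0 and 40.8 CPM at 4 weeks and 18.1, 17.7, 11.6 and 12.1 CPM at 8 weeks (log2 fold change -1.76 ± 0.21, adjusted p = 5.76e-06). Trem2, a receptor for lipids and lipoproteins, had 193, 173, 162 and 158 CPM and then 128, 88.0, 80.2 and 75.6 CPM (log2 fold change -0.89 ± 0.16, adjusted p = 0.000840). Neither gene had overlapping libraries. Apoe fell from 4429 ± 351 to 3118 ± 208 CPM (log2 fold change -0.51 ± 0.11, adjusted p = 0.00545) and lipoprotein lipase Lpl from 108 ± 27.1 to 57.2 ± 19.5 CPM (log2 fold change -0.92 ± 0.22, adjusted p = 0.0106). Apoe and Lpl lost the call in the 26-library fit, and Lpl also without library 3 or 4 of 8 weeks (adjusted p = 0.0617 and 0.0523).

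Of 18 alternatively activated and perivascular genes, 2 were called higher and 3 lower. Igf1, an insulin-like growth factor made by tissue macrophages (chromosome 10, 87858265 to 87937042), had 72.2, 62.8, 24.6 and 31.7 CPM at 4 weeks and 8.57, 7.11, 10.8 and 5.98 CPM at 8 weeks (log2 fold change -2.56 ± 0.31, adjusted p = 6.20e-06). The 4 week libraries fell into a higher and a lower pair, and even the lower pair was above all of 8 weeks. The phosphatidylserine receptor Timd4 rose by 3.12 ± 0.58 and the IL-4 receptor chain Il4ra by 0.63 ± 0.11, while the scavenger receptor Stab1 was lower (-0.49 ± 0.13). These 3 calls were lost in the 26-library fit, and that of Stab1 also without any one of 4 libraries (libraries 3 and 4 of 4 weeks, 2 and 4 of 8 weeks). Growth factor and matrix genes gave 3 higher and 2 lower of 25. The matrix proteases went opposite ways, with the membrane-bound Mmp14 from 178 ± 13.9 to 319 ± 29.1 CPM (log2 fold change 0.85 ± 0.11, adjusted p = 1.76e-05) and the macrophage elastase Mmp12 from 1350.0, 1503, 994 and 1050.3 CPM to 736, 670.4, 480.3 and 455 CPM (log2 fold change -1.06 ± 0.19, adjusted p = 0.00113). The vascular growth factor Vegfa and the urokinase receptor Plaur rose by 2.74 ± 0.51 and 1.01 ± 0.17, calls lost in the 26-library fit.

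Some glycolysis genes were called higher. Of 17 glycolysis genes, 5 were called higher (29.4%, against 3.99% of all genes tested), and the list median was 0.19. None was called lower, which says little in a list of this size, since 1.65% of all genes were. Slc2a1, the glucose transporter GLUT1, had 61.9, 66.0, 39.6 and 40.3 CPM at 4 weeks and 156, 156, 159 and 134 CPM at 8 weeks (log2 fold change 1.54 ± 0.17, adjusted p = 3.16e-06). The regulatory kinase Pfkfb3 rose by 0.83 ± 0.12, the hexokinases Hk2 and Hk3 by 0.96 ± 0.16 and 1.34 ± 0.23 and the phosphofructokinase Pfkp by 1.51 ± 0.35. Hk2, Hk3 and Pfkp lost the call in the 26-library fit. Of 31 oxidative phosphorylation genes, 0 were called in either direction by edgeR, 2 had an unadjusted p under 0.05, DESeq2 and limma-voom each called 1, and the list median was 0.10. Sdhb, a subunit of complex II, had the smallest p of that list (log2 fold change 0.55 ± 0.16, adjusted p = 0.0510). Of 23 cholesterol genes, 2 were called higher, among them Insig1 (log2 fold change 0.70 ± 0.21, adjusted p = 0.0490), which restrains the synthesis of sterols and lost the call in 6 omissions of 1 library. Of 35 cell cycle genes, Tk1 was called higher and Mcm2 lower, calls lost in 3 omissions of 1 library each, and the list median was -0.28. Insig1, Tk1 and Mcm2 also lost the call in the 26-library fit.

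**Figure D4:**
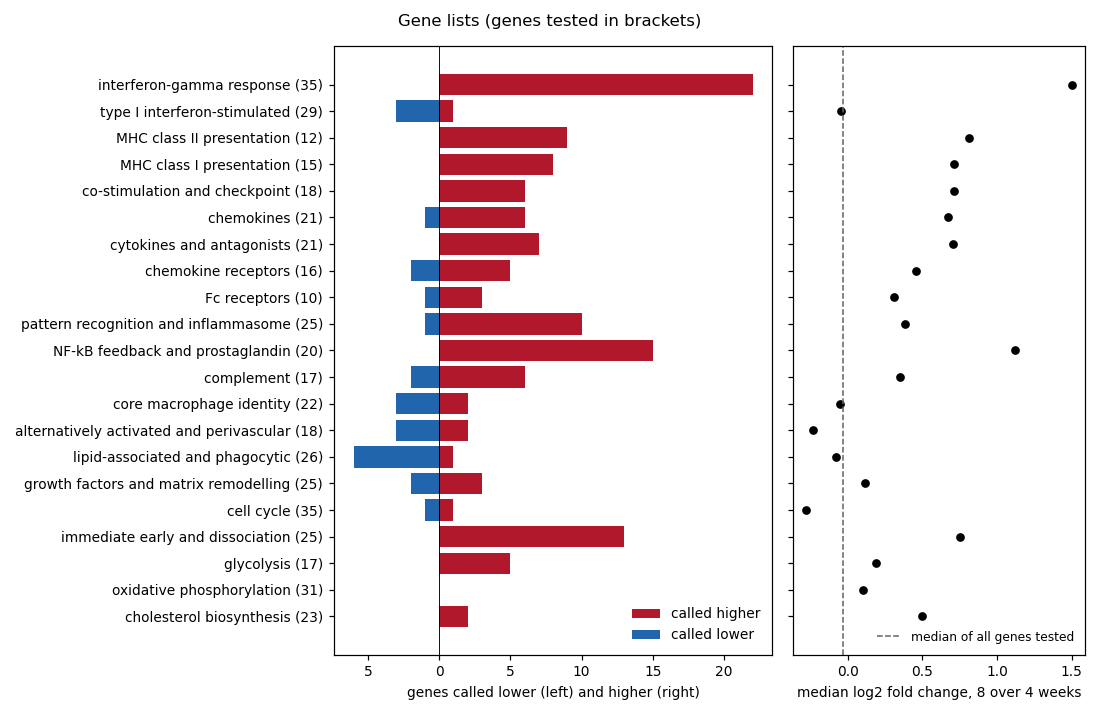
Left, the number of genes called higher (red) and lower (blue) at 8 weeks in each macrophage list, with the number tested in brackets, and right, the median log2 fold change of each list (points) beside that of all genes (dashed line, -0.03). Among these macrophage lists, the interferon-gamma and NF-kB lists have the highest medians, and the type I interferon list lies at the median of all genes.

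The 15 largest rises among called genes with separate libraries held Ankdd1a, Ccl8, Cxcl13, Iigp1, Mir155hg, Ly6i, Ly6a, Apol8, Acod1, Dnase1l3, H1foo, Il12b, Serpina3g, Rbpjl and Lsmem1. Dnase1l3, a secreted nuclease that digests chromatin (chromosome 14, 7964533 to 7994573), had 117, 254, 146 and 67.7 CPM at 4 weeks and 2066, 2808, 3077 and 3638 CPM at 8 weeks (log2 fold change 4.31 ± 0.36, adjusted p = 7.17e-06). Every 8 week library was far above the highest of 4 weeks. Ankdd1a had 2 counts over the 4 week libraries and 215 over those of 8 weeks, a ratio of 122 with a 95% counting interval of 33.4 to 1016. Its exons overlap Spg21 on the opposite strand, and whether counting used strand is not given in the sources used here. Mir155hg, the host transcript of miR-155 (chromosome 16, 84703167 to 84715245), had 0.446, 0.371, 0 and 0 CPM and then 10.3, 9.59, 8.05 and 2.24 CPM (log2 fold change 5.15 ± 0.85, adjusted p = 0.000301). The glycosylphosphatidylinositol-anchored Ly6a (log2 fold change 4.55 ± 0.39, adjusted p = 5.75e-08) and Ly6i (log2 fold change 4.68 ± 0.72, adjusted p = 0.000142) have near-identical relatives, so their values are uncertain. Of these 15, Ankdd1a, Mir155hg, Ly6i, Apol8, H1foo, Rbpjl and Lsmem1 lost the call in the 26-library fit.

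The 15 largest falls were Slc1a4, Tjp1, Adamts1, Kitl, Plxnb1, Rtn4rl1, Igf1, Slc40a1, Minar1, Fgf13, Tal1, Zfp532, Tom1l1, Nid2 and Fcrls. Tjp1, the tight junction scaffold ZO-1 (chromosome 7, 65296165 to 65527781), had 34.1, 29.5, 13.1 and 60.1 CPM at 4 weeks and 6.79, 3.11, 5.49 and 2.83 CPM at 8 weeks (log2 fold change -2.92 ± 0.38, adjusted p = 1.85e-05). The 4 week libraries were uneven, but the lowest was above all of 8 weeks. Plxnb1, a semaphorin receptor, had 13.6, 11.6, 27.6 and 29.9 CPM and then 2.93, 3.38, 4.48 and 2.08 CPM (log2 fold change -2.68 ± 0.44, adjusted p = 0.000301). Slc40a1, the iron exporter ferroportin, fell from 11.9 ± 2.82 to 2.06 ± 1.67 CPM (log2 fold change -2.55 ± 0.39, adjusted p = 0.000135), and the stem cell factor gene Kitl from 6.89 ± 3.70 to 1.00 ± 0.677 CPM (log2 fold change -2.79 ± 0.60, adjusted p = 0.00419). The basement membrane gene Nid2 (log2 fold change -2.39 ± 0.37) and the growth factor homologue Fgf13 (-2.54 ± 0.39) were also lower. Tjp1, Igf1, Rtn4rl1, Fgf13, Zfp532 and Fcrls kept the call in the 26-library fit and the others lost it. Adamts1 (log2 fold change -2.90 ± 0.67, adjusted p = 0.0243) and Tal1 (log2 fold change -2.44 ± 0.64, adjusted p = 0.0222) also lost it in 4 and 5 omissions of 1 library.

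The called genes with the most CPM, a measure that also grows with transcript length, were Cd74, H2-Aa, Psap, H2-Ab1, H2-Eb1, Fth1, B2m and Egr1. Psap, the precursor of the lysosomal saposins, went from 5322 ± 308 to 7473 ± 541 CPM (log2 fold change 0.49 ± 0.09, adjusted p = 0.000898). Fth1, ferritin heavy chain, rose by 0.50 ± 0.13, a call that was lost in the 26-library fit and in 5 omissions of 1 library.

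The change of this step was set against that of the steps on either side by contrasts in the same fit, which share the 4 or 8 week libraries. The change from 4 to 8 weeks less that from 2 to 4 weeks was called for 139 genes (0.844%), 87 above 0 (0.528%) and 52 below (0.316%). Leaving out 1 library gave between 55 and 131 genes, with the lowest counts without library 1 (55 genes) or 4 (65) of 4 weeks or library 3 (77) or 2 (80) of 8 weeks. From 2 to 4 weeks itself, 349 genes were called (2.12%), 1.47% of genes tested higher at 4 weeks. Irf1 was 51.7 ± 7.86 CPM at 2 weeks and its change to 4 weeks did not pass (log2 fold change -0.21, adjusted p = 0.561). Its rise to 8 weeks was larger by 1.94 ± 0.28 on the log2 scale (adjusted p = 0.00110). Gbp2 (1.94 ± 0.27, adjusted p = 0.000685), Iigp1 (5.73 ± 1.06, 0.00975), Ccl8 (5.51 ± 0.89, 0.00347), Cxcl13 (4.80 ± 0.53, 0.000190) and Ptgs2 (3.72 ± 0.45, 0.000406) also had a change above that of the step before. Il10 and Mir155hg, named by rule for the size of this difference, differed by 6.18 ± 1.23 (adjusted p = 0.0140) and 7.77 ± 1.57 (adjusted p = 0.0152). These differences exceed the rises from 4 to 8 weeks (4.11 and 5.15), because the estimated level of both genes was lower at 4 than at 2 weeks. Fscn1, the actin-bundling protein of mature dendritic cells, fell from 27.2 ± 5.07 CPM at 2 weeks to 6.02 ± 1.89 at 4 weeks and rose to 24.6 ± 2.97 at 8 weeks (difference 4.20 ± 0.44, adjusted p = 4.70e-05).

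For the class II genes H2-Ab1 and Cd74 the difference did not pass, and other class II genes are not given here for this contrast. H2-Ab1 rose by 1.35 from 2 to 4 weeks (adjusted p = 1.04e-07) and by 1.26 from 4 to 8 weeks, and the difference between the steps was -0.10 ± 0.18 (adjusted p = 0.900). For Cd74 the difference was 0.07 ± 0.18 (adjusted p = 0.926). Cxcl9 also rose in both steps, from 7.65 ± 5.65 CPM at 2 weeks (log2 fold change to 4 weeks 3.67, adjusted p = 0.0127), with a difference of 0.41 ± 0.99 (adjusted p = 0.926). A difference that did not pass does not show that the steps were equal. Of the genes that fell, Igf1 (-2.25 ± 0.48, adjusted p = 0.0234), Tjp1 (-2.70 ± 0.58, 0.0241), Mmp12 (-1.82 ± 0.32, 0.00638), Siglec1 (-1.67 ± 0.34, 0.0158) and Oas2 (-2.57 ± 0.39, 0.00173) had a change below that of the step before. Oas2 and Mmp12 had risen from 2 to 4 weeks, by 1.29 (adjusted p = 0.00350) and 0.75 (adjusted p = 0.0426). Cd36 fell in the earlier step (log2 fold change -1.12, adjusted p = 0.00285) and in this one (-1.76), and the difference did not pass (adjusted p = 0.494).

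The change from 8 to 12 weeks less that from 4 to 8 weeks was called for 256 genes (1.55%), 19 above 0 (0.115%) and 237 below (1.44%). Leaving out 1 library gave between 96 and 329 genes, with the lowest counts without library 3 (96 genes), 2 (117) or 1 (166) of 8 weeks. From 8 to 12 weeks itself, 146 genes were called (0.887%). Irf1 stood at 124 ± 16.1 CPM at 12 weeks (difference -1.99 ± 0.27, adjusted p = 0.000243), Gbp2 at 146 ± 7.54 CPM (-2.18 ± 0.25, 7.39e-05), Cd74 at 16785 ± 1859 CPM (-1.38 ± 0.18, 0.000215) and Ptgs2 at 284 ± 125 CPM (-3.32 ± 0.41, 0.000215). The change from 8 to 12 weeks did not pass for any of these 4. Egr1 stood at 2355 ± 1056 CPM (-2.75 ± 0.46, 0.00641) and Nlrp3 at 204 ± 104 CPM (-2.79 ± 0.43, 0.00256). Cxcl13 and Ccl8 went on rising after 8 weeks, by 3.25 (adjusted p = 2.25e-06) and 2.05 (adjusted p = 0.00175), to 1175, 1291 and 2403 CPM and 173, 149 and 232 CPM in the 3 libraries of 12 weeks. Both later rises were smaller on the log2 scale than those from 4 to 8 weeks (-2.16 ± 0.41, adjusted p = 0.00857, and -3.81 ± 0.58, adjusted p = 0.00134). The falls of Mmp12 (-1.92, 0.000121), Trem2 (-0.82, 0.0238) and Cd36 (-1.10, 0.0312) went on.

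B6 levels, on the scaling of all 26 libraries, are given side by side without a test, since no B6 library is of 8 weeks. Cxcl9 had 20.7 ± 22.2 CPM in B6 at 4 weeks and 29.9 ± 12.7 CPM at 12 weeks, Gbp2 2.20 ± 1.50 and 7.80 ± 1.22, Iigp1 0.176 ± 0.0784 and 0.616 ± 0.584, Cxcl13 2.84 ± 1.46 and 5.51 ± 2.29 and C3 16.2 ± 12.7 and 19.7 ± 6.20. All of these lay far below the NOD level of 8 weeks at both ages. H2-Ab1 and Cd74 lay above it in B6 at 4 weeks, with 11274 ± 2131 and 30536 ± 7273 CPM, and their B6 values at 12 weeks are not given here. Igf1 had 40.6 ± 33.4 and 26.3 ± 25.6 CPM in B6 at 4 and 12 weeks and Cd36 129.6 ± 36.8 and 114 ± 30.5 CPM. The NOD levels printed earlier are on the scaling of the NOD libraries alone, so the size of a gap to B6 is approximate. The B6 libraries of 4 weeks held 14152 to 17839 genes with a count, against 21059 to 23310 in NOD at 8 weeks. Total counts in B6 at 12 weeks were 4957125 to 8076335, against 10631675 to 12884619 in NOD at 8 weeks. The part of these differences in the low B6 levels was not tested, and B6 levels at 2 weeks are not given here. Whether reads of both strains align equally well to the genome used was not tested.

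Markers of other cells were read beside these results. Cd3e, a chain of the T cell receptor complex, was near 0, with 0.0892, 0, 0.392 and 0 CPM at 4 weeks and 0.627, 0.711, 0.366 and 3.49 CPM at 8 weeks (log2 fold change 3.32 ± 1.20, adjusted p = 0.137). Cd79a had 0.446, 0, 0.705 and 0.0809 CPM and 0.314, 0, 0 and 0.249 CPM and was below the filter. Of 11 T cell markers tested, 0 were called higher and 1 lower (Il7r), and the median log2 fold change of 1.97 came from genes of few counts. The summed level of all measured markers was 193 to 258 CPM at 4 weeks and 180.5 to 215 CPM at 8 weeks, most of it Cd4 and Il7r. Of 11 B and plasma cell markers, Cd22 was called higher (log2 fold change 2.11 ± 0.24, adjusted p = 3.61e-06), and the sums were 471 to 612 and 472 to 522 CPM. Of 7 natural killer and innate lymphoid markers, Klrk1 (log2 fold change 2.80 ± 0.50, adjusted p = 0.000793) and Nkg7 were called higher. Nkg7 had 0 counts at 4 weeks and 29 at 8 weeks, at least 11-fold higher over a floor of 3 counts for the group, with 1 library of 8 weeks at 0 and a call lost in 7 omissions of 1 library. The calls of Il7r, Cd22, Klrk1 and Nkg7 were lost in the 26-library fit.

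Of 15 conventional dendritic cell markers tested, 5 were called higher (33.3%, against 3.99% of all genes tested) and 0 lower, with a median of 1.12. The share called higher was 33.3% of 3 neutrophil, mast cell and basophil markers, 28.6% of 7 natural killer markers and 23.1% of 13 monocyte markers. It was at most 9.09% in the other lists of this kind. Clec9a, a receptor for dead cells, had 9.01, 8.75, 9.95 and 12.3 CPM at 4 weeks and 61.9, 106, 87.4 and 91.6 CPM at 8 weeks (log2 fold change 3.11 ± 0.31, adjusted p = 1.21e-06). Its exons overlap Clec1b on the same strand. Xcr1, the defining receptor of the type 1 subset, had 0.446, 2.08, 0.392 and 1.78 CPM and then 3.66, 3.55, 4.30 and 4.24 CPM (log2 fold change 1.73 ± 0.52, adjusted p = 0.04998), a call lost in 6 omissions of 1 library. Flt3 and Zbtb46, which mark the lineage, had 4.63 ± 1.28 and 3.92 ± 1.66 CPM at 8 weeks and did not pass (adjusted p = 0.192 for both). Fscn1 (log2 fold change 2.03 ± 0.24, adjusted p = 5.76e-06), Ccr7 and Dpp4 were the others called, and Dpp4 lost the call in 5 omissions of 1 library. The summed level was 1454 to 1874 CPM at 4 weeks and 1997 to 2249 CPM at 8 weeks, nearly all of it Sirpa, which macrophages also express. The gate asks for F4/80 as well as CD45 and CD11c, and the part of such cells in the rise of class II, Cd40, Il12b and Ccr7 was not tested. In the 26-library fit Clec9a, Fscn1, Ccr7, Dpp4 and Xcr1 lost the call.

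Of 13 monocyte markers 3 were called higher and 0 lower, with sums of 518 to 665 CPM at 4 weeks and 768 to 905 CPM at 8 weeks. Nr4a1 was among the 3 (log2 fold change 0.75, adjusted p = 0.00611) and is also in the immediate early and dissociation list. Ccr2 had 51.6 ± 6.61 and 69.0 ± 14.2 CPM and did not pass (adjusted p = 0.332), while Ly6c2 was called at 0.134 ± 0.126 and 2.14 ± 0.760 CPM (log2 fold change 3.87 ± 1.02, adjusted p = 0.0237), a call lost in 5 omissions of 1 library. Their part in the results was not tested. Islet endocrine transcripts were abundant at both ages, with Ins2 at 5234, 3342, 1212 and 1492 CPM and 3026, 3712, 2920.2 and 3259.8 CPM, and none of 16 was called by edgeR, with 3 at an unadjusted p under 0.05 and 1 called by DESeq2 and by limma-voom. Libraries 3 and 4 of 4 weeks were the low ones. None of 12 acinar, 6 duct, 5 plasmacytoid dendritic or 6 erythroid markers was called by edgeR either, with 0, 1, 2 and 3 of them at an unadjusted p under 0.05. DESeq2 called 1 plasmacytoid and 1 erythroid marker and limma-voom 2 plasmacytoid markers. Vwf of 10 endothelial markers fell (log2 fold change -1.58 ± 0.40, adjusted p = 0.0181), a call lost in 3 omissions of 1 library, Col1a1 of 11 stromal markers rose (log2 fold change 2.89 ± 0.65, adjusted p = 0.00637), and Csf3r rose (log2 fold change 1.12 ± 0.15, adjusted p = 3.63e-05) while the neutrophil genes of its list were near 0. All 3 monocyte calls, that of Ly6c2 included, and the calls of Vwf and Col1a1 were lost in the 26-library fit.

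**Figure D5:**
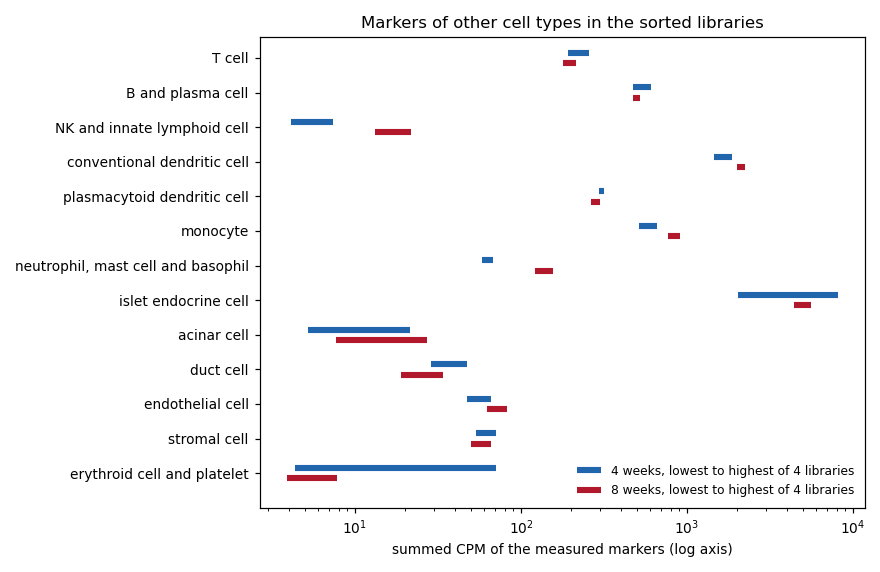
Range over the 4 libraries of each age (blue, 4 weeks; red, 8 weeks) of the summed CPM of the measured markers of each other cell type, on a log axis. The ranges do not overlap for 4 lists, which are higher at 8 weeks: natural killer, conventional dendritic cell, monocyte, and neutrophil, mast cell and basophil. They overlap for the other lists. A sum can rest on few markers, as that of the dendritic list does on Sirpa, which macrophages also express.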

How the data were processed

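RNA-seq of sorted islet macrophages was deposited as 1 table of read counts per gene, whole numbers that the authors did not normalise, for 26 libraries. The submitters' processing notes name STAR, HTSeq and DESeq2 and the genome mm10, while parameters, strand setting and versions are not given in the sources used here. Of 41092 lines, 534 repeats of 286 identifiers were removed, which left 40558 genes. Symbols and positions came from the GENCODE M21 annotation and promoters from RefSeq, both on GRCm38.

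Samples were grouped by the strain and age in their labels. The 15 NOD libraries were fitted together with edgeR 4.0.16 (R 4.3.3; filterByExpr, TMM, robust quasi-likelihood), with Benjamini-Hochberg adjustment over all genes tested, so that the 2 and 12 week libraries share the estimate of spread and the steps can be compared. Simulated counts were used to check the script: of 48 genes changed 1.5-fold 3 were called, of 48 changed 2-fold 12, of 48 changed 4-fold 34, of 49 changed 8-fold 33, and of 15422 unchanged genes 6. Counting intervals are 95% and cover counting error only, since amplified reads are not independent molecules. Genes were named by a rule: the 15 largest rises and falls with separate groups and at least 5 CPM, up to 5 genes by smallest p from each macrophage list and 3 from each list of another cell type, the 8 called genes of most CPM, gate and purity genes, and the 5 largest step differences. Genes added for their role were the interferon-gamma receptors and kinases, Socs1, Ciita, Cxcl10, Cd80, Tnf, Csf1r and Cd68, and the remaining members were added after their values were seen. The comparison, lists and members were chosen with earlier results of these data known. Counts and medians cover every member of a list, and a few members are not reported here by name. Alternatives were DESeq2 1.42.0, limma-voom 3.58.1, other scalings and filters, other sets of libraries, a replicate block, a minimum fold change and the omission of each library.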

Additional observations from a re-analysis of the deposited data

Results flagged for a closer look

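Single libraries stood apart from the other 3 of their age in 18 of 315 sets of 4 libraries read (5.71%), by a gap above the 95% critical value of Dixon's test for 4 samples, where chance gives about 1 in 20. The fourth 8 week library accounted for 7 of them. It was low for Irf1 (117 CPM), Icam1 (66.1), Cd86 (256), Slc2a1 (134) and Sdhb (58.5), and high for Ifngr1 (398) and Cd3e (3.49). The first 8 week library was low for H2-Aa (8383 CPM) and H2-Ab1 (7579), and the third was high for Igtp (28.5) and Ifi44 (9.51). At 4 weeks, the fourth library was high for Apoe (4955 CPM) and Fcrls (18.6) and low for Tgtp2 (0.162). The third 4 week library stood apart for Gbp3 (89.9 CPM) and Il12rb1 (0.157), the first for Il10 (2.14) and the second for Ly6i (1.48).

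Of 26 step differences read, 22 passed. Some of these genes were named because their difference passed, so this share is not a result. Over all genes tested, 0.844% passed against the step before and 1.55% against the step after. The change from 4 to 8 weeks exceeded that from 2 to 4 weeks for Irf1 (1.94 on the log2 scale), Gbp2 (1.94), Iigp1 (5.73), Ccl8 (5.51), Cxcl13 (4.80), Ptgs2 (3.72), Il10 (6.18), Mir155hg (7.77) and Fscn1 (4.20). It was lower for Igf1 (-2.25), Tjp1 (-2.70), Mmp12 (-1.82), Siglec1 (-1.67) and Oas2 (-2.57). The change from 8 to 12 weeks was below that from 4 to 8 weeks for Irf1 (-1.99), Gbp2 (-2.18), Cd74 (-1.38), Ptgs2 (-3.32), Egr1 (-2.75), Nlrp3 (-2.79), Cxcl13 (-2.16) and Ccl8 (-3.81). Both sets share the 4 and 8 week libraries, so they are not independent of the step itself.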

How the results depend on the processing

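Among counts of genes called, the choice of libraries and of test mattered most. The 928 calls became 169 with all 26 libraries (135 higher, 34 lower), 1468 with limma-voom (1000 higher, 468 lower) and 114 with a minimum log2 fold change of 1 (99 higher, 15 lower). The share higher was 70.8% in the NOD fit, 79.9% with all 26 libraries and 86.8% with the minimum fold change. Leaving out 1 library gave 648 to 848 calls, 466 to 603 higher and 167 to 251 lower, with 167 lower when the second 8 week library was left out. The comparison with the step before gave 55 to 131 genes and that with the step after 96 to 329. The cause of these shifts was not tested. DESeq2 gave 1255, the 8 libraries alone 1228, the other scalings 933 and 937, no filter 1109, a stricter filter 1043, and the fit without the 12 week libraries 884.

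Same-numbered libraries of the 2 ages did not deviate together (correlations -0.0453 to 0.0453 over 4 pairs, against -0.0552 to 0.0667 for other pairs). The numbers were therefore not used as a pairing in the main fit, although 4 such correlations cannot exclude one. With the replicate number as a block, 855 genes were called in the 15 NOD libraries and 1234 in the 8 libraries alone.

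No named gene that was called changed direction under any alternative run. Of 3873 values of single genes, 3489 kept their side of the threshold, 304 fell below it and 80 passed it. Of 145 genes that were named and called, 26 kept the call under every alternative run and 90 lost it with all 26 libraries. Depth limits genes near 1 CPM.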
